A study of Vitis vinifera with 16 samples.

Results

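The monolignol genes of grape ovules were followed here as 76 of the 13411 genes in the deposited table. They were taken by a search of the protein descriptions for the 11 enzyme steps from phenylalanine to the monolignols. Where that description was missing or uninformative, a second description from Swissprot was searched, and it gave 9 of the 76. The search found 16 genes for cinnamoyl-CoA reductase (CCR), 12 for phenylalanine ammonia-lyase (PAL), 9 each for 4-coumarate:CoA ligase (4CL) and caffeic acid O-methyltransferase (caffeic acid OMT), and 8 for caffeoyl shikimate esterase (CSE). It found 7 for caffeoyl-CoA O-methyltransferase (CCoAOMT), 5 each for hydroxycinnamoyl-CoA:shikimate hydroxycinnamoyltransferase (HCT) and cinnamyl alcohol dehydrogenase (CAD), 3 for ferulate 5-hydroxylase (F5H), and 1 each for cinnamate 4-hydroxylase (C4H) and p-coumaroyl shikimate 3'-hydroxylase (C3H). Of the 76, 23 are described as a -like, probable or putative enzyme, including all 5 CAD genes, so that membership of a step rests on similarity. KEGG placed 68 of them in phenylpropanoid synthesis. Of the others, 5 are CSE genes and 3 are 4CL genes.

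Monolignols are the alcohols from which plants polymerise lignin, the stiffening polymer of secondary walls. PAL removes the amino group of phenylalanine, C4H and 4CL make the activated acid p-coumaroyl-CoA, and HCT, C3H and CSE carry it through shikimate esters to the caffeoyl stage. CCoAOMT and caffeic acid OMT add methyl groups, F5H opens the branch to sinapyl alcohol and syringyl lignin, and CCR and CAD reduce the acids to aldehydes and alcohols. In a grape seed the inner cell layers of the outer seed coat lignify as the seed hardens. The early steps also feed flavonoids and stilbenes, both abundant in grape.

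The ovules came from Muscat Hamburg (MH) or from Zhongpu No. 18 (ZP), both grape varieties, at 35, 45, 55 or 61 days from flowering, and their total RNA was sequenced. Each of the 8 groups of variety and day held 2 libraries, 16 in all, and the labels name no treatment. The study concerns lignin synthesis in seeded ovules and in stenospermocarpic ones, whose seeds are fertilised and then abort. The labels do not say which variety is seedless, and Muscat Hamburg is known as a seeded table grape. They also do not say that libraries came from separate plants, or how many ovules were pooled, so p-values measure the spread between libraries, which may be technical. The material was stored with its skin. MADS5, described in Swissprot as the ovule identity factor AGL11, stood at 231 to 405 FPKM in MH and 196 to 477 FPKM in ZP, and anthocyanidin reductase ANR, active in young seed coats, at 387 to 759 and 306 to 689 FPKM. TRANSPARENT TESTA 16 (LOC100244209), a factor of the inner seed coat, stood at 1.83 to 25.4 FPKM in MH and 59.5 to 75.7 FPKM in ZP.

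Levels are FPKM, the fragments of a gene per kilobase of transcript, scaled to the mapped fragments of the library. The steps between low values put the depth at about 20034000 to 30002000 fragments a library. A gene entered the tests if 2 or more libraries had 1 FPKM or more, which took 12637 genes and 70 of the 76 members. The 6 not tested, 5 PAL genes and 1 4CL gene, reached at most 1.18 FPKM. Differences are given on the log2(FPKM + 1) scale with their standard error, which understates the change of low genes. The threshold for a call was an adjusted p of 0.05 (limma, Benjamini-Hochberg over 12637 genes). The median SD between libraries of a group was 0.0493 to 0.156 (log2) over all genes and 0.0481 to 0.136 over the members. Same-numbered libraries varied together across the MH days, so standard errors of differences averaged over the days may be too small. Averaged over the days, the median of all genes stood at 0.58 in ZP minus MH, and at 0.11, 0.06 and 0.42 with median-ratio scaling, with quantile normalization, or rescaled without seed storage genes. Of 55 seed storage and desiccation markers of the embryo and endosperm, 36 were lower and 16 higher in ZP. Their summed level held 17.0 to 46.3% of all FPKM in MH and 0.175 to 1.54% in ZP, where 1 of them was listed at 0 throughout. Lignified wall markers (12 cellulose, xylan and wall protein genes) summed to 85.2 to 558 FPKM in MH and 358 to 985 FPKM in ZP, with 11 higher and 1 lower. Of 26 green tissue markers 25 were higher and 1 lower, of 56 tested berry flesh and skin markers 45 and 8, and of 68 heat shock genes 33 and 26 (18 and 41 after median-ratio scaling). The summed level of the flesh and skin list did not keep 1 order. It was higher in ZP at day 35 (5712 against 4888 FPKM in MH) and day 61 (3535 against 3107). At days 45 and 55 it was lower in ZP (2935 against 3340 and 1964 against 3662 FPKM). In ovules sequenced whole, fewer cells of a type and less RNA per cell cannot be told apart, and the part of these cell types in the results below was not tested.

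All 11 steps were detected in both varieties, and within most steps some copies were higher in ZP and others lower. Averaged over the days, 33 of the 70 tested members were higher and 27 lower in ZP, 85.7% together, where 88.7% of all tested genes were called, 61.6% higher and 27% lower. The members' median difference was 0.07. After median-ratio scaling the members split into 27 higher and 35 lower, where 48% and 42.1% of all genes were called those ways. After quantile normalization they split into 27 and 38 (46.7% and 43.4% of all genes), and after rescaling without storage genes into 31 and 33 (56.2% and 32.6%). These shares of all genes are also the background for the average splits of single steps below. Both directions occurred within 8 of the 11 steps. The 5 HCT genes were higher, with 4 higher after median-ratio scaling and 4 higher and 1 lower after quantile normalization. In 12 tested members every ZP library lay above every MH library, and in 12 every MH library lay above every ZP library, 17.1% each. Of all tested genes 30.3% lay the first way and 8.59% the second. Summed, the 76 members held 0.344 to 0.790% of all FPKM in the MH libraries and 0.730 to 0.959% in ZP.

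**Figure D1:**
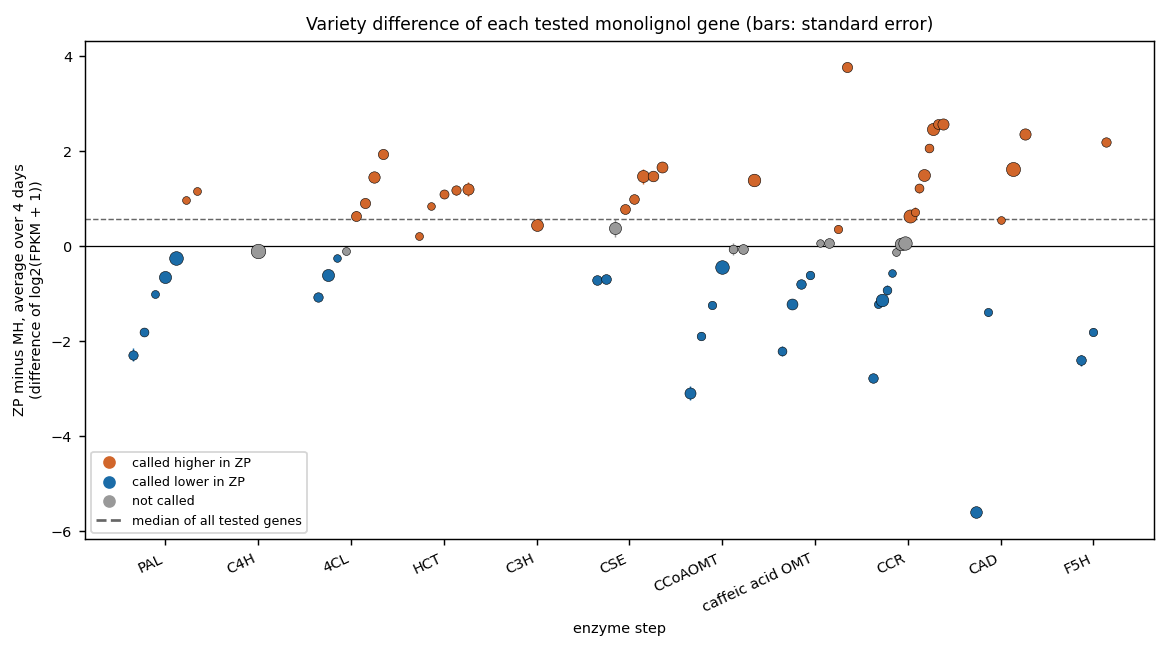
Average difference between the varieties (ZP minus MH, log2(FPKM + 1) scale, 8 libraries each) for tested monolignol genes, 1 point a gene, by enzyme step. Bars are standard errors, larger points have higher mean levels, colours mark the call, and the dashed line is the median of all tested genes (0.58). The lowest point is a CAD gene at -5.58, and 1 gene is left out.

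The sign of many differences changed with the day. At day 35, 25 members were higher and 30 lower in ZP (78.6% called; 76.9% of all tested genes, 45.8% higher and 31.1% lower). At day 45 the counts were 36 and 24 (85.7%; 78.9% of all genes, 59.8% and 19.1%). At day 55 they were 33 and 29 (background 78.2%, 56.9% and 21.3%) and at day 61 they were 32 and 25 (background 74.6%, 55.5% and 19.2%). At day 61 the split was 21 higher and 32 lower after median-ratio scaling (41.6% and 36.7% of all genes) and 20 and 34 after quantile normalization (38.7% each way). On all 4 days 14 members were higher (background 33.8%) and 14 lower (background 9.4%), 20% of the members each. Another 10 were lower in ZP at day 35 and higher later, each of them by day 45, which is 14.3% where 10.8% of all genes did so. The reverse held for 9 members, 12.9%, against 4.33% of all genes. These patterns were counted on deposited values only. After median-ratio scaling LOC100255334 and LOC100241301, both among the 10, were called lower in ZP at day 45 (-0.49 and -0.20). Counts of marker genes turned between the same days. Of the 12 lignified wall markers 4 were higher and 6 lower in ZP at day 35 (median -0.15), and 10 were higher and 1 lower at day 45 (median 2.96). Of the 68 heat shock genes 46 were higher and 10 lower at day 35 (median 1.01), and 8 were higher and 47 lower at day 45 (median -1.02). On deposited FPKM the summed level of the lignified wall list did not turn. It was 699 FPKM in ZP and 534 in MH at day 35, and 900 and 182 FPKM at day 45. That of the heat shock list did, from 13319 FPKM in ZP and 6382 in MH to 3593 and 7725 FPKM. The part of either list in the members' differences was not tested.

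PAL, the entry to the pathway, rested on 2 abundant genes, both lower in ZP on average, while 2 groups of weaker genes split by variety. LOC100241575 (chromosome 6, 3281243 to 3284788) held 61.1 to 81.7% of the summed PAL level in MH and 67.9 to 83.6% in ZP. In MH it stood at 197 and 178 FPKM at day 35, 123 and 142 at day 45, 220.2 and 238 at day 55, and 350.0 and 376 at day 61. ZP values were 218 and 209 FPKM at day 35, 112 and 105.3 at day 45, 159 and 157 at day 55, and 298 and 257 at day 61. In both varieties it was lowest at day 45 and highest at day 61, and the ranges of the varieties overlapped. It rose from day 35 to 61 in MH by 0.95 ± 0.12 (adjusted p = 1.07e-05), and its average difference was -0.25 ± 0.06 (adjusted p = 0.00132). LOC100233012 (chromosome 13, 5962067 to 5966007), the next by level, was also lower in ZP, at -0.65 ± 0.06 (adjusted p = 3.63e-07), with a lowest, median and highest library of 45.6, 67.8 and 98.6 FPKM in MH and 36, 43.9 and 53.2 FPKM in ZP. LOC100233012 and the genes of the groups that follow fall outside the rule for named genes and were chosen after their values were seen, as were all further genes below that are given by a range alone.

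The other 10 PAL genes lie in 2 groups of neighbours, where genes of 1 step on 1 chromosome with gaps of at most 500 kb count as a group. The 3 genes on chromosome 11 (1200495 to 1328046) stood higher in every MH library than in any ZP library. LOC109123362, the highest of them, in MH stood at 14.1 and 17.3 FPKM at day 35, 4.73 and 8.58 at day 45, 6.55 and 10.7 at day 55, and 4.43 and 6.86 at day 61. Its ZP libraries read 1.04 and 0.665 FPKM at day 35, 1.03 and 1.26 at day 45, 1.58 and 0.846 at day 55, and 0.453 and 0.745 at day 61, so that the varieties were far apart on each day. Its average difference was -2.28 ± 0.14 (adjusted p = 1.92e-09), and LOC100255939, at 2.91 to 9.21 FPKM in MH and 0.442 to 0.909 FPKM in ZP, differed by -1.80 ± 0.07 (adjusted p = 8.39e-12). LOC100266224, the weakest, ranged over 0.915 to 2.17 FPKM in MH and 0.108 to 0.3996 FPKM in ZP. Of the 7 genes on chromosome 16 (600785 to 783663) most went the other way, at a far lower level. Their sum was 0.319 to 1.65 FPKM in MH and 1.58 to 7.15 FPKM in ZP, and in 4 of them every ZP library lay above every MH library. At day 35 the mean sums were close, 1.46 FPKM in MH and 1.61 FPKM in ZP. LOC100252889 was higher in MH at day 35, at 0.904 and 0.583 FPKM against 0.119 and 0.107 in ZP, and its varieties overlapped over all libraries. Of these 7, 2 were tested and both were called higher, while the other 5 stayed too low to test. Over all 7 tested PAL genes 2 were higher and 5 lower, with the same split after each of the 3 rescalings. How reads shared by near-identical neighbours were assigned was not given in the sources used here, so values of single genes in such groups are uncertain. In all, 37 members sit in 13 such groups.

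**Figure D2:**
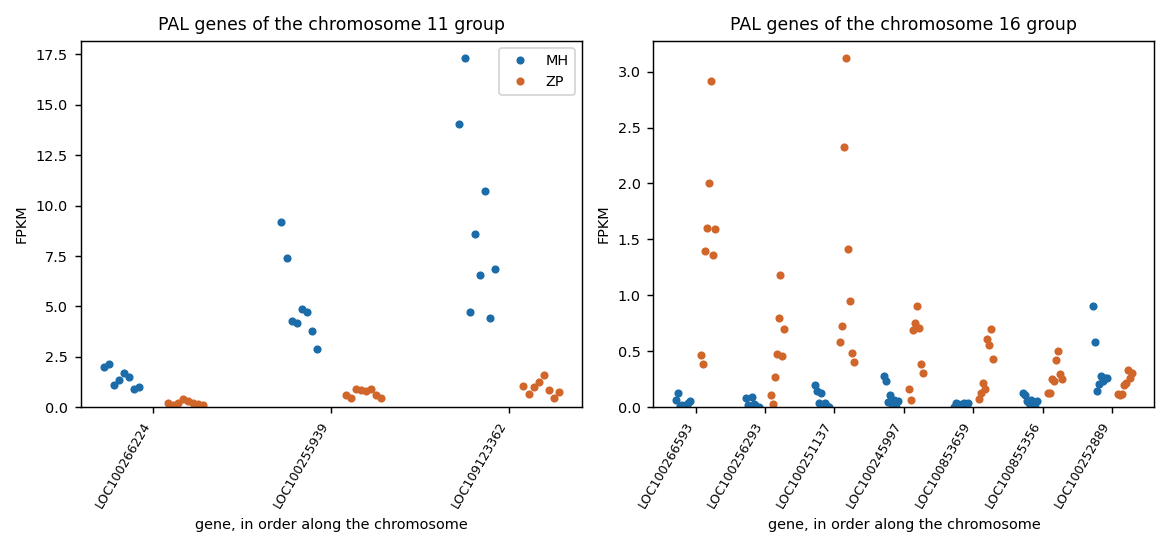
FPKM of the PAL genes in the groups of neighbours on chromosome 11 (left, 3 genes) and chromosome 16 (right, 7 genes), 1 point a library, 8 libraries a variety, placed within a gene by day. The chromosome 11 genes were higher in the MH libraries and most chromosome 16 genes in the ZP libraries, on axes of different height.

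C4H, the membrane P450 that hydroxylates cinnamate, was a single and abundant gene. Its changes from day 35 to 61 had opposite signs in the varieties on the deposited values. LOC100253493 (chromosome 6, 8894765 to 8898590) in MH stood at 424 and 374 FPKM at day 35, 349 and 357 at day 45, 474 and 458 at day 55, and 530.2 and 537 at day 61. The values in ZP were 519.9 and 491 FPKM at day 35, 390.2 and 416 at day 45, 318 and 366 at day 55, and 399.8 and 358 at day 61. In both varieties the group mean fell from day 35 to 45 and rose from day 55 to 61, while between days 45 and 55 it rose in MH and fell in ZP. MH was highest at day 61 and ZP at day 35, and the ranges overlapped. The changes from day 35 to 61 were 0.42 ± 0.12 in MH and -0.41 ± 0.12 in ZP, and they differed from each other by -0.83 ± 0.17 (adjusted p = 7.98e-04). The change in MH lost its call without MH day 35 replicate 2 and that in ZP without replicate 1 of ZP day 35 or replicate 2 of ZP day 61. After median-ratio scaling the change in ZP was not called, while that in MH was still called a rise. The average difference, -0.10 ± 0.06, was not called on the deposited values. It was called lower under each of the other scalings, at -0.83 after median-ratio scaling, -0.21 after quantile normalization and -0.36 after rescaling without storage genes.

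Among the 4CL genes, whose enzyme activates p-coumarate, the canonical gene was lower in ZP and several 4CL-like genes were higher. The gene named 4CL (chromosome 16, 2094540 to 2099713), annotated as 4CL 2, in MH stood at 81.5 and 61.4 FPKM at day 35, 55.7 and 48.4 at day 45, 70.3 and 49.98 at day 55, and 83 and 77.3 at day 61. ZP libraries stood at 63.1 and 60.9 FPKM at day 35, 30.9 and 28.6 at day 45, 30.1 and 40.1 at day 55, and 53.2 and 46.4 at day 61. The varieties overlapped at day 35, and on each later day both MH libraries lay above both ZP libraries. Its average difference was -0.60 ± 0.09 (adjusted p = 2.93e-05), and it overlaps the long noncoding RNA gene LOC100264775, so with strand use not given the counts of these 2 cannot be told apart. It held 47.2 to 65.7% of the summed 4CL level in MH and 23.4 to 46.5% in ZP.

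LOC100242222 (chromosome 14, 26345271 to 26347909), a 4CL-like 9 gene, was 2.73 to 5.35 FPKM in MH and 16.1 to 22.2 FPKM in ZP, with no overlap on any day. It had the largest positive average difference of the step, 1.95 ± 0.06 (adjusted p = 1.30e-12). LOC100243654 (chromosome 18, 1288134 to 1292164), a 4CL-like 5 gene chosen after its values were seen, was the highest of the like forms. Its means of 2 libraries at day 35 were 12 FPKM in MH and 23.1 FPKM in ZP, and 25.1 and 65.6 FPKM at day 61, with an average difference of 1.46 ± 0.10 (adjusted p = 8.15e-09). LOC100266547 (chromosome 1, 24508287 to 24510916), also 4CL-like 9, was an early MH gene. It stood at 27.4 and 20.8 FPKM in MH at day 35 and at 1.29 to 3.18 FPKM over the ZP libraries, with MH at 3.70 and 3.27 by day 45. It fell in MH by 2.52 on the log2 scale, and its average difference was -1.07 ± 0.08 (adjusted p = 1.11e-08). LOC100268159, another 4CL-like 9 gene and likewise chosen after its values were seen, fell in MH (-1.301 ± 0.12) and rose in ZP (1.32 ± 0.12), a difference of 2.62 ± 0.16 (adjusted p = 2.15e-08). Of 8 tested 4CL genes 4 were higher and 3 lower on average (3 and 4 after median-ratio scaling or quantile normalization, 4 and 4 after rescaling without storage genes). The shares over all tested genes were 61.6% higher and 27% lower on the deposited values. The remaining 4 of the 9 genes, including the untested one, had group means of at most 20.6 FPKM.

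HCT moves p-coumaroyl and caffeoyl groups to and from shikimate. At day 45 all 5 of its genes were higher in ZP (5 after median-ratio scaling or rescaling without storage genes, 4 after quantile normalization). At day 61 4 were higher, but 1 higher and 1 lower after median-ratio scaling and none higher and 1 lower after quantile normalization. Of all tested genes 59.8% were called higher at day 45 and 55.5% at day 61. LOC100265530 (chromosome 9, 19333207 to 19336512), the main gene, in MH stood at 36.5 and 20.4 FPKM at day 35, 14.8 and 9.36 at day 45, 17.6 and 9.99 at day 55, and 14.5 and 11.1 at day 61. In ZP it stood at 40.3 and 39.2 FPKM at day 35, 42.1 and 45.7 at day 45, 30.5 and 42.9 at day 55, and 32.8 and 24.5 at day 61. From day 45 on each ZP library lay above all MH libraries of those days, and in each MH group replicate 1 was the higher. The average difference was 1.20 ± 0.15 (adjusted p = 4.54e-06), while day 35 alone (0.53 ± 0.30) was not called unless MH day 35 replicate 1 was left out. A group of 3 neighbours on chromosome 9 (11770136 to 12081769) had its own course, described after its values were seen. Their summed level in ZP went from 2.87 FPKM at day 35 to 23.1 at day 45, 23.9 at day 55 and 8.15 at day 61, whereas in MH it was 2.47 to 5.85 FPKM throughout. LOC100265206 was lower in ZP at day 35 (-0.68 ± 0.20, a call lost without ZP day 35 replicate 2) and higher at day 55 (2.50 ± 0.20, adjusted p = 6.43e-08). LOC100854069 followed the same order, at -0.82 ± 0.16 (adjusted p = 3.77e-04) and 2.36 ± 0.16 (adjusted p = 1.21e-08). The last of the 3, LOC100256573, stayed at 0 to 0.140 FPKM in MH and 0.267 to 2.23 FPKM in ZP. The fifth HCT gene, LOC100250237, was at most 2.20 FPKM, and its average difference turned to -0.074 without a call after median-ratio scaling and to -0.25 with one after quantile normalization.

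C3H, the P450 that adds the second ring hydroxyl on the shikimate ester, was a single gene whose peak fell on different days. LOC100263633 (chromosome 8, 12894816 to 12897886) in MH stood at 117 and 80.8 FPKM at day 35, 27.2 and 23.2 at day 45, 37.9 and 25.1 at day 55, and 18.3 and 17.2 at day 61. ZP values were 29.4 and 31.2 FPKM at day 35, 87.3 and 117 at day 45, 38.7 and 50.3 at day 55, and 37.1 and 34.9 at day 61. MH was highest at day 35 and ZP at day 45, and on both days the varieties stood apart. The difference was -1.65 ± 0.22 at day 35 (adjusted p = 1.12e-05) and 1.97 ± 0.22 at day 45 (adjusted p = 1.75e-06). The average over the days, 0.45 ± 0.11, turned to -0.26 after median-ratio scaling and -0.069 after quantile normalization, both without a call. It fell by 2.39 (log2) over the days in MH, with 0.24 ± 0.22 and no call in ZP.

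CSE, which frees caffeate from its shikimate ester, was spread over 8 genes, all of which reached a group mean of 5 FPKM. Only 3 of the 8 carry a phenylpropanoid assignment in KEGG. On average 5 were higher and 2 lower in ZP (4 and 2 after median-ratio scaling or quantile normalization), a split close to the 61.6% higher and 27% lower of all tested genes. LOC100248095 (chromosome 9, 5472963 to 5474450), the most abundant, in MH stood at 109 and 60.6 FPKM at day 35, 48.5 and 28.5 at day 45, 55.9 and 24.7 at day 55, and 40.6 and 25.1 at day 61. Its ZP libraries read 95.5 and 91.6 FPKM at day 35, 70.4 and 74 at day 45, 28.1 and 47.1 at day 55, and 44.4 and 41.3 at day 61. Replicate 1 was the higher in each MH group, as it was for LOC100261504 and for the HCT gene LOC100265530, and the average difference of LOC100248095 was 0.38 ± 0.19 (adjusted p = 0.0783). Not called on all libraries, that difference was called when any 1 of MH day 35, 45, 55 or 61 replicate 1 or ZP day 55 replicate 1 was left out, with a range of 0.24 to 0.52 over all single omissions.

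LOC100246971 (chromosome 7, 3590977 to 3594710) was higher in ZP on each day, at 7.80, 10.2 and 11.9 FPKM (lowest, median and highest library) in MH and 27.6, 32.7 and 42.3 FPKM in ZP, an average difference of 1.67 ± 0.05 (adjusted p = 2.17e-12). LOC100260284 (chromosome 13, 2252200 to 2254317) had the largest rise of any member in ZP. There it stood at 0.701 and 0.616 FPKM at day 35, 21.3 and 21.2 at day 45, 54.7 and 50.1 at day 55, and 34.3 and 33.2 at day 61. In MH it stood at 2.57 and 2.81 FPKM at day 35, 4.77 and 5.87 at day 45, 4.98 and 6.36 at day 55, and 6.81 and 6.17 at day 61, above ZP at day 35 and below it on each later day. It rose by 4.39 ± 0.13 in ZP and 1.02 ± 0.13 in MH, changes that differed by 3.37 ± 0.18 (adjusted p = 6.58e-09). The 2 neighbours on chromosome 17 were lower in ZP on average and on each day from 45 on, while at day 35 LOC100262570 was higher (1.04 ± 0.13, adjusted p = 6.06e-06) and LOC100257447 was not called (0.21 ± 0.14). Over the days LOC100257447 (chromosome 17, 14955622 to 14962682) rose in MH from 6.63 and 5.64 to 11.3 and 10.8 FPKM and fell in ZP from 6.99 and 7.53 to 4.85 and 4.33 FPKM. Its average difference was -0.71 ± 0.07 (adjusted p = 2.26e-07). LOC100261504, next to LOC100248095 in level and chosen after its values were seen, was 16.5 to 46.5 FPKM in MH and 43 to 121 FPKM in ZP, with an average difference of 1.47 ± 0.17 (adjusted p = 1.35e-06). The other 3 CSE genes lay between 2.75 and 15.3 FPKM in every library.

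CCoAOMT, which methylates caffeoyl-CoA, had copies that differed in opposite directions. Each of its 7 genes changed more upward, or less downward, from day 35 to 61 in ZP than in MH (7 of 7 called, 5 of 7 after median-ratio scaling or quantile normalization and 6 of 7 after rescaling without storage genes; 48.5% of all tested genes), and on average 1 was higher and 4 lower in ZP (1 and 6 after median-ratio scaling or quantile normalization, 1 and 5 after rescaling without storage genes). LOC100243978 (chromosome 7, 27236226 to 27238029), the most abundant, in MH stood at 231 and 187 FPKM at day 35, 210.3 and 187 at day 45, 275 and 228 at day 55, and 219 and 216 at day 61. The values in ZP were 104 and 102 FPKM at day 35, 186 and 229.8 at day 45, 139.8 and 155 at day 55, and 225 and 209 at day 61. ZP was below MH at days 35 and 55, with differences of -1.01 ± 0.15 (adjusted p = 2.85e-05) and -0.76 ± 0.15 (adjusted p = 3.04e-04). At day 45 it differed by 0.06, which was -0.86 and -0.31 with a call after median-ratio scaling and quantile normalization.

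LOC100233087 (chromosome 3, 5708381 to 5709701), the next by level, in MH stood at 131 and 104 FPKM at day 35, 27.6 and 25 at day 45, 42.9 and 27.5 at day 55, and 25.2 and 26.2 at day 61. ZP libraries stood at 64.6 and 62.9 FPKM at day 35, 186 and 202 at day 45, 93.1 and 125 at day 55, and 107 and 97.4 at day 61. MH was higher at day 35 only, and at days 45 to 61 each ZP library lay above all MH libraries of those days. The difference was -0.86 ± 0.19 at day 35 (adjusted p = 0.00101) and 2.84 ± 0.19 at day 45 (adjusted p = 1.34e-08), with an average of 1.39 ± 0.10. LOC100262946 (chromosome 11, 2087169 to 2089731), a probable CCoAOMT, was an MH gene of day 35. In MH it stood at 109.6 and 121 FPKM at day 35, 22.1 and 23.4 at day 45, 18.4 and 21 at day 55, and 16.8 and 12.9 at day 61. In ZP it stood at 1.05 and 1.19 FPKM at day 35, 4.79 and 4.18 at day 45, 2.04 and 1.84 at day 55, and 2.25 and 7.07 at day 61, below every MH library. The average difference was -3.08 ± 0.15 (adjusted p = 1.22e-10), and it fell by 2.89 (log2) in MH while it rose by 1.27 ± 0.29 in ZP.

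LOC100262946 is the last of 4 neighbours on chromosome 11 (2072634 to 2089731), with LOC100268094 and 2 gene models of the authors' own that overlap annotated pseudogenes, as does 1 model among the CCR genes. The model at 2074401 to 2076162 of chromosome 11 in MH stood at 9.17 and 11.8 FPKM at day 35, 1.38 and 1.44 at day 45, 0.691 and 0.779 at day 55, and 0.117 and 0.236 at day 61. Its 8 ZP libraries lay at 0.0294 to 0.366 FPKM, and it fell by 3.28 (log2) in MH (adjusted p = 1.17e-10). The model at 2072634 to 2073912 of chromosome 11, chosen after its values were seen, ranged from 0.806 to 10.9 FPKM in MH and from 0 to 0.238 FPKM in ZP, with 1 ZP library of day 35 listed at 0. At day 35 the 4 genes summed to 151 FPKM in MH and 10.1 FPKM in ZP, and to 19.8 and 9.29 FPKM at day 61. LOC100268094 was called lower in ZP at day 35 and on no later day, but on all 4 days after median-ratio scaling or quantile normalization, and LOC100266060 was at most 5.12 FPKM.

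Caffeic acid OMT, which methylates the later intermediates on the way to syringyl units, held the largest rise of any member in MH. LOC100242108 (chromosome 18, 2868250 to 2870073) in MH stood at 5.56 and 5.04 FPKM at day 35, 30.02 and 30.8 at day 45, 39 and 38.1 at day 55, and 51.8 and 47 at day 61. ZP values were 12.2 and 12.2 FPKM at day 35, 8.28 and 8.08 at day 45, 9.10 and 10.3 at day 55, and 9.82 and 8.84 at day 61. ZP was higher at day 35 and MH on each later day, without overlap on any of the 4 days. It rose by 3.00 ± 0.11 in MH (adjusted p = 7.87e-11), and the change in ZP minus that in MH was -3.36 (adjusted p = 1.34e-09). LOC100265976 (chromosome 19, 14463624 to 14465434) also belonged to MH, with 0.794 and 0.596 FPKM at day 35 and 10.7 and 8.12 FPKM at day 55 there, and 0.0729 to 0.316 FPKM over all ZP libraries. Its average difference was -2.21 ± 0.10 (adjusted p = 6.56e-11).

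LOC100232921 (chromosome 2, 2310957 to 2312709) was the counterpart in ZP. There it stood at 9.80 and 8.71 FPKM at day 35, 19.5 and 20.1 at day 45, 20.9 and 21.3 at day 55, and 35.7 and 35.4 at day 61, and at 0.253 to 0.758 FPKM in the 8 MH libraries. Its average difference, 3.77 ± 0.08 (adjusted p = 2.71e-14), was the largest positive one of any member, and it rose over the days in ZP by 1.84 ± 0.15. LOC100255690 (chromosome 15, 19663789 to 19665290) had the largest falls of both varieties and ended near 0 in both. In MH it stood at 15.4 and 15.8 FPKM at day 35, 14.3 and 11.3 at day 45, 0.0299 and 0.0412 at day 55, and 0 and 0 at day 61. Its ZP libraries read 23.5 and 23.5 FPKM at day 35, 5.22 and 5.22 at day 45, 0.566 and 0.853 at day 55, and 0.157 and 0.0775 at day 61, lower than MH by day 45 already (-1.14 ± 0.13, adjusted p = 2.35e-06). The changes from day 35 to 61 were -4.05 ± 0.13 in MH and -4.45 ± 0.13 in ZP, and its average difference of 0.07, not called, turned to -0.24 after median-ratio scaling and -0.29 after quantile normalization. LOC132253142 (chromosome 18, 24659535 to 24660420) fell in both too, from 16 and 15.1 to 2.32 and 1.53 FPKM in ZP and from 7.37 and 7.81 to 2.06 and 2.40 FPKM in MH, where its highest values, 11.8 and 13.6 FPKM, came at day 55. Over the 9 tested genes 3 were higher and 4 lower on average (2 and 5 after median-ratio scaling, 2 and 7 after quantile normalization). On the deposited values 61.6% of all tested genes were higher and 27% lower. Of the other members of the step, LOC100260649, LOC100260786 and LOC100265990 were at most 4.67 FPKM in all libraries.

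**Figure D3:**
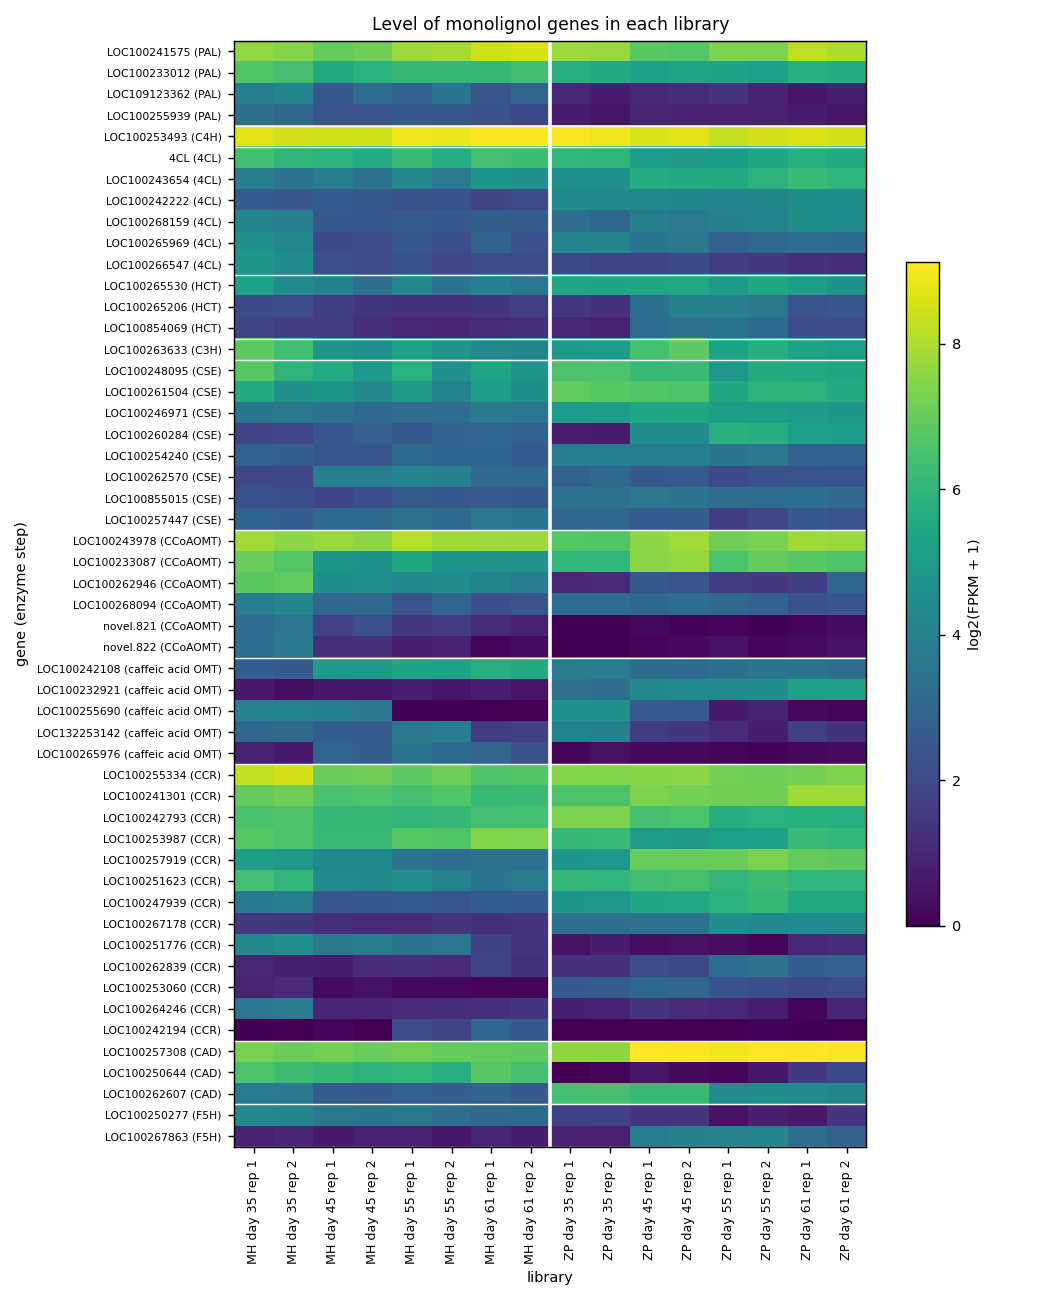
Level (log2(FPKM + 1), colour) of monolignol genes with a group mean of at least 5 FPKM in each of the 16 libraries, MH on the left and ZP on the right, ordered by day, with enzyme steps in pathway order. Within a step, copies bright on one side and dark on the other stand beside copies that are bright on both sides, and 1 gene is left out.

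CCR, which reduces the activated acids to aldehydes, was the largest set. Of 16 genes 8 were higher and 5 lower on average in ZP (7 and 8 after median-ratio scaling or quantile normalization, 8 and 8 after rescaling without storage genes). The background on the deposited values was 61.6% higher and 27% lower. In MH 11 fell and 3 rose over the days (8 and 4 after median-ratio scaling, 9 and 4 after quantile normalization), where 52.1% of all tested genes fell and 15.8% rose. LOC100255334 (chromosome 6, 2868064 to 2874759), annotated as CCR 1 and the most abundant, in MH stood at 309 and 369 FPKM at day 35, 131 and 140.1 at day 45, 115 and 136 at day 55, and 95.8 and 102 at day 61. The values in ZP were 173 and 171 FPKM at day 35, 179.6 and 187 at day 45, 143 and 137 at day 55, and 148 and 162 at day 61. It fell in MH by 1.76 (log2, adjusted p = 3.10e-08) and moved by -0.16 ± 0.12 without a call in ZP. At day 35 it was lower in ZP, at -0.97 ± 0.12. The higher values in ZP later (0.44 at day 45, 0.64 at day 61) turned to -0.49 and -0.20 after median-ratio scaling, and its average of 0.07, not called, turned to -0.66 with that scaling, to -0.30 after quantile normalization and to -0.19 when rescaled without storage genes.

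LOC100257919 (chromosome 16, 1279844 to 1282580), a CCR-like gene named after rice SNL6, in MH stood at 33.8 and 29.6 FPKM at day 35, 18.4 and 18 at day 45, 10.0 and 8.90 at day 55, and 9.47 and 9.65 at day 61. ZP libraries stood at 27.6 and 27.9 FPKM at day 35, 126 and 126 at day 45, 135 and 158 at day 55, and 125 and 117 at day 61. At day 35 both MH libraries lay just above both ZP libraries without a call, and from day 45 on the ZP libraries lay far above. It fell by 1.63 (log2) in MH and rose by 2.09 ± 0.11 in ZP, changes that differed by 3.71 ± 0.16 (adjusted p = 7.67e-10). LOC100251776 (chromosome 13, 25870469 to 25876015), annotated as CCR 2, in MH was 18.7 and 22.9 FPKM at day 35, 11.8 and 13.5 at day 45, 10.3 and 10.9 at day 55, and 2.45 and 1.68 at day 61. Its ZP libraries lay at 0.103 to 1.27 FPKM, and the average difference was -2.77 ± 0.08 (adjusted p = 7.70e-13). LOC100242194 (chromosome 13, 20674699 to 20677013), annotated as CCR 1, appeared late and in MH. It was at most 0.114 FPKM there at days 35 and 45, then 3.42 and 2.61 FPKM at day 55 and 6.95 and 5.05 FPKM at day 61, a rise of 2.76 ± 0.13 (adjusted p = 6.16e-10). In ZP it was listed at 0 in 6 of 8 libraries and at 0.0562 FPKM or less in the others.

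LOC100247939 (chromosome 18, 514765 to 517391) had the largest positive average difference of the step, 2.58 ± 0.06 (adjusted p = 1.02e-13). In MH it was 11.9 and 13.6 FPKM at day 35, 4.60 and 4.74 at day 45, 5.29 and 4.38 at day 55, and 5.56 and 5.31 at day 61. In ZP it stood at 26.7 and 27.9 FPKM at day 35, 43.7 and 44.8 at day 45, 55.3 and 66.6 at day 55, and 45.4 and 47.1 at day 61, above every MH library. It lies between LOC100242793 and LOC100253060 on chromosome 18 (509394 to 527166), and the 3 CCR 2 genes did not share a course. LOC100253060 was 0.101 to 1.16 FPKM in MH and 2.92 to 7.30 FPKM in ZP, with an average difference of 2.06 ± 0.06 (adjusted p = 4.99e-13). LOC100242793, the most abundant of the 3, was higher in ZP at day 35 (0.77 ± 0.10, adjusted p = 1.15e-05) and lower at day 61 (-0.64 ± 0.10, adjusted p = 6.14e-05). Its day 45 difference of 0.38 turned to -0.54 and -0.24 after median-ratio scaling and quantile normalization. These neighbours and the CCR genes that follow were chosen after their values were seen.

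The other CCR genes above 50 FPKM were LOC100251623, LOC100241301 and LOC100253987. LOC100251623, CCR 1, had means at day 35 of 73.5 FPKM in MH and 64.4 FPKM in ZP, and of 11.5 and 63 FPKM at day 61. It fell by 2.57 (log2) in MH, and the change in ZP was greater by 2.54 ± 0.24 (adjusted p = 8.37e-07). LOC100241301, SNL6-like, ended at 71.3 and 73.7 FPKM in MH and 225 and 223 FPKM in ZP at day 61 (1.61 ± 0.11, adjusted p = 1.37e-08), while its higher values in ZP at days 45 and 55 (0.72 and 0.61) turned to -0.20 and -0.24 after median-ratio scaling. LOC100253987, also SNL6-like, was lower in ZP on all 4 days, with 172 and 168 FPKM in MH and 70.5 and 65 FPKM in ZP at day 61 and an average difference of -1.12 ± 0.05 (adjusted p = 7.41e-11). LOC100267178, CCR 1-like, was 1.18 to 1.91 FPKM in MH and 9.10 to 21.1 FPKM in ZP (2.57 ± 0.06, adjusted p = 1.66e-13). The remaining 5 CCR genes were at most 13.0 FPKM in all libraries, the highest being LOC100264246 in MH at day 35.

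CAD, which makes the monolignols themselves, held the member with the largest difference. LOC100250644 (chromosome 4, 22978432 to 22981051), probable CAD 9, in MH stood at 92.1 and 77.5 FPKM at day 35, 68.4 and 58.8 at day 45, 65.2 and 51.3 at day 55, and 111 and 84.8 at day 61. ZP values were 0 and 0.0930 FPKM at day 35, 0.413 and 0.167 at day 45, 0.127 and 0.473 at day 55, and 1.91 and 3.19 at day 61. No ZP library came near the lowest MH library, and the highest ZP values were those of day 61. The average difference was -5.58 ± 0.10 (adjusted p = 1.66e-14), the lowest of any member, and with 1 ZP library listed at 0 its size depends on the pseudocount of 1 FPKM.

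LOC100257308 (chromosome 3, 6188157 to 6189943), probable CAD 1, was the most abundant CAD gene in both varieties and in MH stood at 154 and 134 FPKM at day 35, 147 and 126 at day 45, 145 and 124 at day 55, and 123 and 118 at day 61. Its ZP libraries read 194 and 194 FPKM at day 35, 557 and 543 at day 45, 484 and 556 at day 55, and 550.0 and 518 at day 61. Each ZP library lay above all MH libraries, and in ZP the level was far higher from day 45 on than at day 35. Its average difference was 1.63 ± 0.06 (adjusted p = 1.77e-11), and it rose in ZP by 1.46 ± 0.13. The change in MH, -0.26 ± 0.13, was not called without pairing, was called with the replicate number as a block within each variety (adjusted p = 0.0253 with limma), and turned to 0.42 with a call after median-ratio scaling. LOC100262607 (chromosome 18, 12889750 to 12891878), probable CAD 6, was a ZP gene that fell. In ZP it stood at 82.9 and 85.2 FPKM at day 35, 71.7 and 71 at day 45, 20.04 and 22.1 at day 55, and 20.1 and 17 at day 61, and at 4.88 to 12.9 FPKM in the MH libraries, below all of ZP. Its average difference was 2.36 ± 0.07 (adjusted p = 7.09e-13), with changes over the days of -2.13 ± 0.14 in ZP and -0.96 ± 0.14 in MH, both called. LOC100262421, a neighbour of LOC100257308 on chromosome 3, was 0.796 to 4.23 FPKM in MH and 0.0300 to 0.314 FPKM in ZP, the opposite order at a low level, and LOC100247381 was at most 1.47 FPKM. Of the summed CAD level LOC100250644 held 27.9 to 45.3% in MH and at most 0.590% in ZP. CAD kept its split of 3 higher and 2 lower after each of the 3 rescalings.

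F5H, the P450 of the syringyl branch, was carried by different genes in the varieties after day 35. LOC100250277 (chromosome 3, 464876 to 466864) in MH stood at 19.2 and 16.9 FPKM at day 35, 11.2 and 10.6 at day 45, 11.9 and 9.33 at day 55, and 7.31 and 8.26 at day 61. The values in ZP were 2.52 and 2.44 FPKM at day 35, 1.67 and 1.68 at day 45, 0.355 and 0.752 at day 55, and 0.550 and 1.68 at day 61. Its neighbour LOC100253771 (chromosome 3, 517856 to 519760), chosen after its values were seen, was 1.23 to 4.65 FPKM in MH and 0.0813 to 0.269 FPKM in ZP. All MH libraries lay above all ZP libraries in both genes, with average differences of -2.40 ± 0.11 (adjusted p = 6.58e-11) and -1.79 ± 0.07 (adjusted p = 2.52e-11). LOC100267863 (chromosome 4, 20937130 to 20939283) was at 0.477 to 0.982 FPKM in MH. ZP libraries stood at 0.854 and 0.791 FPKM at day 35, 13.4 and 15.3 at day 45, 15.7 and 16.8 at day 55, and 8.95 and 6.36 at day 61. The varieties overlapped at day 35 and were apart on each later day. Its difference was -0.05 ± 0.16 at day 35, 3.18 ± 0.16 at day 45 (adjusted p = 1.07e-09) and 3.37 ± 0.16 at day 55 (adjusted p = 4.81e-10). Of the summed F5H level it held 24% in ZP at day 35, then 88.3%, 96.2% and 85.5%, and at most 9.33% in any MH library. The F5H sum at day 35 was 23.2 ± 2.09 FPKM in MH and 3.42 ± 0.0733 FPKM in ZP (mean ± SD, n = 2), and 14.4 ± 3.00 and 16.9 ± 1.10 FPKM at day 55. The split of 1 higher and 2 lower stayed after each of the 3 rescalings.

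**Figure D4:**
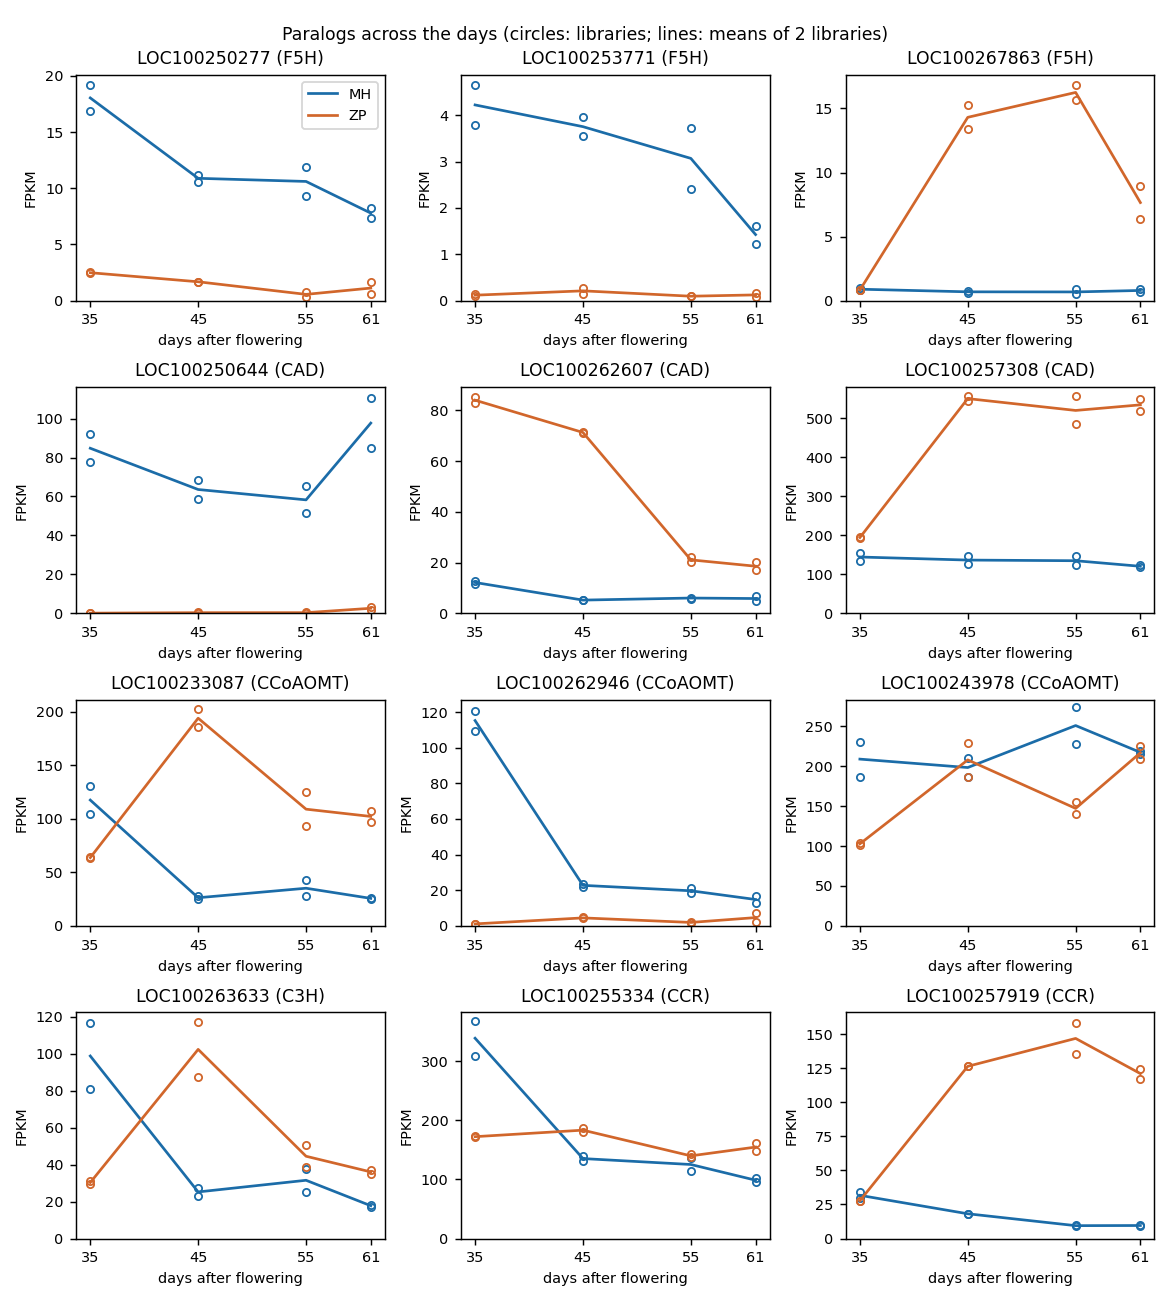
FPKM of 12 genes from F5H, CAD, CCoAOMT, C3H and CCR against days after flowering, circles for the 2 libraries of a group and lines through their means. LOC100250644 stays near 0 in ZP, LOC100267863 stays near 0 in MH, and LOC100263633 and LOC100233087 peak at day 35 in MH and at day 45 in ZP.

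From day 35 to day 61 more members fell than rose in MH, and about as many rose as fell in ZP. In MH 15 of 70 rose and 37 fell, with a median of -0.51, where 68% of all tested genes were called, 15.8% rising and 52.1% falling, with a median of -0.42. After median-ratio scaling 24 rose and 27 fell in MH, where 30.6% of all genes rose and 35.2% fell. The members' counts were the same after quantile normalization, where 33% and 31.2% of all genes did so. In ZP 25 rose and 21 fell (background 66.9%, 31.9% rising and 35% falling), with medians of -0.02 for the members and -0.01 for all genes. Of 53 members with a group mean of at least 5 FPKM, 33 were highest at day 35 in MH and 17 in ZP, while 1 was highest at day 45 in MH and 13 in ZP. Peak days were not counted over all genes or after rescaling, so these counts have no background to be read against. The variety by day interaction was called for 61 of 70 members (background 78.9%). The change from day 35 to 61 was more positive in ZP for 36 members and more negative for 18 (background 69.1%, 48.5% and 20.7%), with a median of 0.70 against 0.49 for all genes. In opposite directions, 12 fell in MH and rose in ZP, 17.1% against 10.7% of all genes, and 5 did the reverse, 7.1% against 2.98%. The contrasts of single days, averages and changes share libraries, so these counts are not independent of each other. Over the same days 11 of 12 lignified wall markers fell in MH with none rising (median -3.06), and in ZP 3 rose and 7 fell (median -0.56). Of 68 heat shock genes 51 fell and 9 rose in MH (median -1.31), and 56 fell and 5 rose in ZP (median -2.26).

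Summed over all genes of a step, levels showed the course of the step as a whole, and no test was made on the sums. The sums are of deposited FPKM and were not rescaled, so the order of the varieties in them may depend on the scaling. The PAL sum went through its lowest point at day 45 in both, 195 ± 23.4 FPKM in MH and 156 ± 1.46 FPKM in ZP, and its highest at day 61, 448 ± 27.7 and 333 ± 32.3 FPKM. The CCR sum in MH was 821.2 ± 39.2 FPKM at day 35 and 428 ± 12.7 FPKM at day 45, against 641 ± 0.351 and 735 ± 5.44 FPKM in ZP. CAD sums at day 45 were 206 ± 21.8 FPKM in MH and 623 ± 11.2 FPKM in ZP, with no overlap between varieties on any day. HCT sums at day 45 were 16 ± 4.50 FPKM in MH and 67.6 ± 7.77 FPKM in ZP, and CCoAOMT sums at day 35 were 479 ± 35.1 and 178 ± 2.27 FPKM. The CAD sum counts only genes described as probable or like forms.

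**Figure D5:**
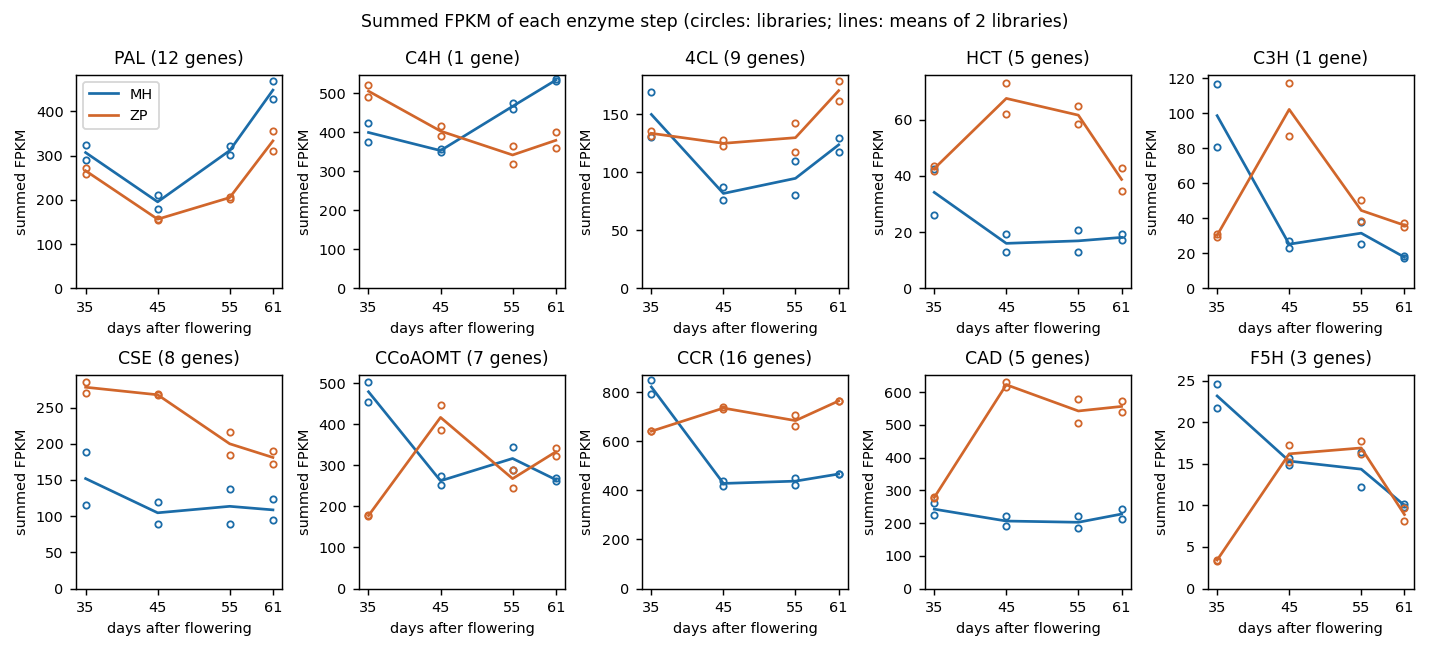
Summed FPKM of all genes of a step against days after flowering, circles for the 2 libraries of a group and lines through their means, for 10 of the 11 steps. On deposited FPKM, not rescaled, the CAD and CSE sums lie higher in ZP in all libraries of each day. The CCoAOMT and C3H sums are highest at day 35 in MH and at day 45 in ZP.

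Genes around the pathway were counted from lists of their own, and are described by how many were higher or lower. Of 18 genes that supply aromatic amino acids 8 were higher and 6 lower in ZP on average (median 0.14; 4 and 13 after median-ratio scaling, 4 and 11 after quantile normalization), with LOC100263367 at -3.32 ± 0.11 and LOC100248678 at 1.60 ± 0.08. Of 9 genes of methyl donor supply, which make and recycle S-adenosylmethionine, 6 were higher and 1 lower (median 0.58; 3 and 4, and 3 and 3, after those scalings), with the S-adenosylmethionine synthase gene METK2 at 1.01 ± 0.07. Of 15 P450 reductase and cytochrome b5 genes 10 were higher and 4 lower (median 0.64, with 7 and 7, and 8 and 5, after those scalings). Such proteins can pass electrons to P450s, and which of them serve C4H, C3H or F5H was not tested. Of 48 laccase, peroxidase and dirigent genes 37 were higher and 7 lower (median 0.94, with 31 and 12, and 30 and 14, after those scalings). They were taken by description, and which of them act on finished monolignols was not tested. From day 35 to 61, 7 of these 48 rose and 19 fell in MH, and 16 rose and 21 fell in ZP. Of 12 chalcone and stilbene synthase or chalcone isomerase genes, which draw on the same p-coumaroyl-CoA, 7 were higher and 4 lower (median 0.44; 7 and 5, and 6 and 4). The 4 lower genes were abundant, with MH means of 238 to 1124 FPKM and ZP means of 157 to 701 FPKM. The 7 higher genes were weak, with means of at most 0.878 FPKM for MH and 5.67 FPKM for ZP. The deposited sum of the list (14 genes, not rescaled, no test made) was 2709 FPKM for ZP against 2604 for MH on day 35. On days 45, 55 and 61 the ZP sum was the lower, 1367, 1529 and 2867 FPKM against 2430, 3220 and 3814. From day 35 to 61, 4 of the 12 rose and 2 fell in MH, and 7 rose and none fell in ZP. Of 9 secondary wall MYB and NAC regulators 8 were higher and 1 lower (median 1.06; 7 and 1 after either scaling). From day 35 to 61, 1 of the 9 rose and 8 fell in MH, and 4 rose and 3 fell in ZP. Of all genes tested, 15.8% rose and 52.1% fell in MH over these days, and 31.9% rose and 35% fell in ZP. In the average difference all genes had a median of 0.58 and 61.6% higher calls, and 11 of 12 lignified wall markers were higher in ZP with a median of 1.37 (10 after median-ratio scaling and 8 after quantile normalization).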

How the data were processed

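Total RNA of grape ovules was sequenced in 16 libraries, 2 for each variety and day, grouped by the labelled variety and time. The deposited table gives FPKM per gene, computed by the authors per the file headers, and all its per-sample columns were used. The sources used here do not give the aligner, counter, strand setting, build or FPKM scaling. Values were taken as log2(FPKM + 1) from the deposited FPKM, with a filter of 1 FPKM in 2 libraries. Groups were fitted with limma 3.58.1 (R 4.3.3, trend, 1 mean per group, 8 residual degrees of freedom) on 12637 genes, with Benjamini-Hochberg adjustment and a threshold of 0.05, two-sided. The fit was tested on simulated data. Files were handled with Python 3.11.15 and pandas 2.3.3, and figures drawn with matplotlib 3.10.9.

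Low FPKM values of 3725 genes (27.8%) fell on whole steps within 0.06 of a step, which gave the depth, 1 fragment per kilobase being worth 0.0333 to 0.0499 FPKM. Coordinates in the table equal those of RefSeq ASM3070453v1 for the 73 members matched there. The other 3 are gene models of the authors.

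The members and lists were chosen with earlier results of these data known. Named genes were, per step, the one with the highest mean, and those with the largest positive and negative called average difference among genes with a group mean of 5 FPKM, plus the 3 largest called rises and falls over the days in each variety. Results for 1 gene are not reported here, although counts over members include it. Alternatives were other scalings (median-ratio, quantile, rescaling without storage genes), another pseudocount, other filters, only the libraries compared, a replicate block, and leaving out each library. Deviations of same-numbered libraries correlated at 0.41 to 0.73 in all 6 pairs of MH days, so the numbers pair the MH libraries, and above 0.1 in 5 of 6 pairs of ZP days. Between the varieties no pair of 16 was above 0.1 and 6 were below -0.1. The labels give no source for this pairing. The main fit took libraries as independent, so standard errors of variety differences averaged over the days may be too small and their p-values too low. The block within each variety was fitted for changes over the days and the interaction only, not for the variety differences.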

Additional observations from a re-analysis of the deposited data

Results flagged for a closer look

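For 36 of the genes described, the change from day 35 to day 61 differed between the varieties (limma, adjusted p under 0.05), which is the reason each is listed here. Such a call was common, at 77.1% of the 70 tested members and 69.1% of all tested genes. Of all tested genes 48.5% were more positive and 20.7% more negative in ZP. The values are the change in ZP minus the change in MH on the log2(FPKM + 1) scale. All 36 kept their sign under each other scaling. Median-ratio scaling ended the calls of LOC100242222, LOC100243978, LOC109123362 and LOC100250644. Quantile normalization ended those of LOC100242222, LOC109123362, LOC100255939 and LOC100253771, and rescaling without storage genes ended none.

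The change was more positive in ZP for 26 of them. In PAL it was 1.11 for LOC100255939 and 1.13 for LOC109123362, whose call was lost without replicate 2 of MH day 35, replicate 1 of MH day 61, or replicate 2 of ZP at day 35 or at day 61. In 4CL it was 0.75 for LOC100242222, 1.80 for LOC100266547 and 2.62 for LOC100268159. The HCT genes LOC100265206 and LOC100854069 differed by 1.498 and 1.75, and the C3H gene LOC100263633 by 2.63. The CSE gene LOC100260284 differed by 3.37. In CCoAOMT the values were 1.00 for LOC100243978, 2.81 for LOC100233087, 2.66 for the authors' model at 2072634 to 2073912 of chromosome 11, 3.59 for that at 2074401 to 2076162 of chromosome 11 and 4.16 for LOC100262946, which was the highest of all. The caffeic acid OMT gene LOC100232921 differed by 1.70.

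In CCR the values were 1.28 for LOC100267178, 1.61 for LOC100255334, 1.83 for LOC100247939, 2.04 for LOC100241301, 2.54 for LOC100251623, 3.40 for LOC100251776 and 3.71 for LOC100257919. The CAD genes LOC100250644 and LOC100257308 differed by 1.54 and 1.71, and the F5H genes LOC100253771 and LOC100267863 by 1.11 and 2.31.

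The change was more negative in ZP for 10. These were the PAL gene LOC100241575 (-0.58), the C4H gene LOC100253493 (-0.83), the CSE gene LOC100257447 (-1.32) and the CAD gene LOC100262607 (-1.17). They also held the caffeic acid OMT genes LOC100242108 (-3.36), LOC100265976 (-1.93) and LOC132253142 (-1.10). The last were the CCR genes LOC100242194 (-2.74), LOC100242793 (-1.41) and LOC100253987 (-0.85).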

How the results depend on the processing

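With 1 library left out at a time, average counts stayed at 33 to 34 higher and 27 to 28 lower. They were 22 to 26 and 27 to 30 at day 35, 35 to 36 and 22 to 24 at day 45, 30 to 33 and 26 to 30 at day 55, and 30 to 32 and 23 to 25 at day 61. Over the days, 12 to 15 rose and 34 to 37 fell in MH, and 22 to 25 and 18 to 21 in ZP. The difference of changes gave 34 to 37 and 16 to 19, and the interaction 58 to 64.

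Scaling moved 2 of the counts over all members by over 1.5 times, and some counts of single steps and lists by as much, given beside those counts. Those higher at day 61 went from 32 to 21 (median-ratio) and 20 (quantile), and those rising in MH from 15 to 24 with either. Signs turned for some single genes, and the cause was not tested. With median-ratio scaling, LOC100243978 was at -0.86 at day 45, LOC100255334 at -0.66 on average, -0.49 at day 45, -0.68 at day 55 and -0.20 at day 61, and LOC100253493 at -0.74 at day 45. LOC100263633 was at -0.26 on average and -0.33 at day 55, LOC100255690 at -0.24 on average, LOC100241301 at -0.093 on average, -0.20 at day 45 and -0.24 at day 55, and LOC100242793 at -0.67 on average and -0.54 at day 45. Changes over the days in MH were 0.42 for LOC100257308, 0.38 for LOC100233012, 0.0045 for LOC100265206 and 0.53 for LOC100242793. With quantile normalization, LOC100243978 was at -0.31 at day 45, LOC100255334 at -0.30 on average and -0.32 at day 55, LOC100263633 at -0.069 on average and -0.16 at day 55, LOC100255690 at -0.29 on average, the authors' CCoAOMT model at 2074401 to 2076162 of chromosome 11 at -0.29 at day 61, and LOC100242793 at -0.44 on average and -0.24 at day 45. MH changes were 0.18 for LOC100242222, 0.57 for LOC100267863, 0.28 for LOC100265206, 0.19 for LOC100854069 and 0.57 for LOC100267178. Rescaled without storage genes, LOC100255334 was at -0.19 and LOC100242793 at -0.20 on average.

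Other filters changed no count by over 1.5 times and no call of a named gene. Among the single results that kept their sign, median-ratio scaling ended 27 calls and made 13, and quantile normalization 24 and 12. Rescaling without storage genes ended 11 and made 3, fits of only the libraries compared 11 and 8, and a pseudocount of 0.1 FPKM 1 and 4. Results whose sign turned are not in these counts. They numbered 18 with median-ratio scaling, 14 with quantile normalization and 2 when rescaled without storage genes. Replicate numbers did not pair libraries across the varieties. With the replicate block, 24 lower calls at day 45 became 23, 37 falls in MH 36 and 61 interactions 64. LOC100241575 at day 45 (-0.28, adjusted p = 0.0522 with limma) and LOC100265206 in MH (-0.48, adjusted p = 0.0515) lost their call. A replicate block within each variety, chosen after seeing the data, gave 15 rises and 39 falls in MH, 25 and 24 in ZP, 39 and 20 in the difference of changes, and 69 interactions. It ended no call of a named gene and made 8. These were the changes in MH of LOC100257308 (-0.26) and LOC100233012 (-0.30), in ZP of LOC100265530 (-0.47) and the gene named 4CL (-0.31), and the differences of changes of LOC100265530 (0.58), LOC100243654 (0.44), LOC100261504 (-0.87) and the gene named 4CL (-0.49).

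Groups of 2 libraries limit the precision of every value, and 6 members were too low to test.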
